A study of Homo sapiens with 9 samples.

Results

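Of the 26485 gene symbols in the count table, 7 encode the S100 proteins best known from monocytes, macrophages and neutrophils: S100A4, S100A6, S100A8, S100A9, S100A10, S100A11 and S100A12. They were taken by symbol, and their RNA was compared between 3 genotypes of MV4;11, an established human acute myeloid leukaemia line. The groups were parental cells, cells whose MYC protein carries the K148Q substitution and cells whose MYC carries K148R, with 3 libraries each. MYC is a transcription factor, and the substituted residue is a lysine in parental cells. All cells grew untreated in RPMI medium. The sample titles code the groups as WT, Q2 and R14. What the codes mean, how the substitutions were made, and whether a group is 1 clone or its libraries came from separate cultures was not given in the sources used here, so p-values measure the spread between these libraries, which may be technical. Gene counts do not show which codon the MYC gene carries.

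S100 proteins are small proteins that bind calcium through a pair of EF hands and then expose a surface that grips other proteins. S100A8 and S100A9 join into calprotectin, which fills the cytosol of neutrophils and monocytes, binds zinc and manganese away from microbes and acts as an alarm signal outside the cell. S100A12 is a related calgranulin, while S100A4, S100A6, S100A10 and S100A11 are made by many cell types and work mainly with cytoskeletal proteins and annexins inside the cell.

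Total counts ranged from 13747087 to 18938391 per library, and 12845 genes had enough counts to be tested. K148Q replicate 3 stood apart from the other K148Q libraries, at 17.8 and 18.3 in chi-square over its degrees of freedom, where replicates 1 and 2 differed by 1.35. Values below are counts scaled to a common library size (CPM). Of 10 myeloid markers, among them PTPRC, CD33 and SPI1, all 10 were above 1 CPM in each group. Of the markers of other lineages, CD3E, MS4A1, PF4 and EPCAM were listed at 0, while NKG7, KRT8, KRT18 and ITGA2B were detected. MYC itself was at 333 ± 4.05 CPM in parental, 473 ± 29.5 in K148Q and 379 ± 3.38 CPM in K148R cells (SD, n = 3).

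The calprotectin genes were nearly silent in parental cells, low in K148Q cells and well expressed in K148R cells. S100A8 had 1 count in all 3 parental libraries together, 140 in K148Q and 3473 in K148R. In CPM, S100A8 was listed at 0, 0 and 0.0596 in the parental libraries, at 3.26, 2.87 and 2.98 in K148Q and at 69.4, 71.4 and 70.9 in K148R. The groups did not overlap, and the libraries of each variant lay close together. From the summed counts the K148Q level was 143 times the parental level (95% interval 25.3 to 5700) and the K148R level 3330 times (597 to 131000), intervals that cover counting error only. The width of both comes from the single parental count, which lay in replicate 3. Without that library the parental group held 0 counts. Against a floor of 3 counts over the remaining parental libraries, mean S100A8 was 30.8 times the floor in K148Q and 715 times in K148R. That library was left out after its count was seen, and these figures carry no interval, so they are not lower bounds. Between the variants both levels were well counted, and S100A8 was 23.2 times higher in K148R than in K148Q (19.6 to 27.7). By edgeR's quasi-likelihood test with Benjamini-Hochberg adjustment over all genes tested, the adjusted p was 5.3e-09 for K148Q against parental, 8.6e-15 for K148R against parental and 7.5e-14 for K148R against K148Q. The folds fitted by that model against parental cells were 105 for K148Q and 2430 for K148R, lower than the count ratios.

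S100A9 followed the same order of groups. It was at 0.181, 0.0723 and 0.179 CPM in the parental libraries, at 8.28, 7.32 and 6.08 in K148Q and at 54.2, 49.4 and 51.8 in K148R. Again no library of a group reached the range of another. Its fitted log2 fold change was 5.53 ± 0.27 (SE) in K148Q against parental cells (adjusted p = 5.7e-10). For K148R it was 8.37 ± 0.2 against the parental group (adjusted p = 5.1e-14) and 2.84 ± 0.11 against K148Q (adjusted p = 1e-11). The parental level of S100A9 rested on 7 counts, so that the K148R level was 350 times the parental one with a counting interval of 170 to 872. Both comparisons with parental cells use the same 3 parental libraries. In bulk RNA, more cells that express a gene and more RNA per expressing cell cannot be told apart.

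**Figure D1:**
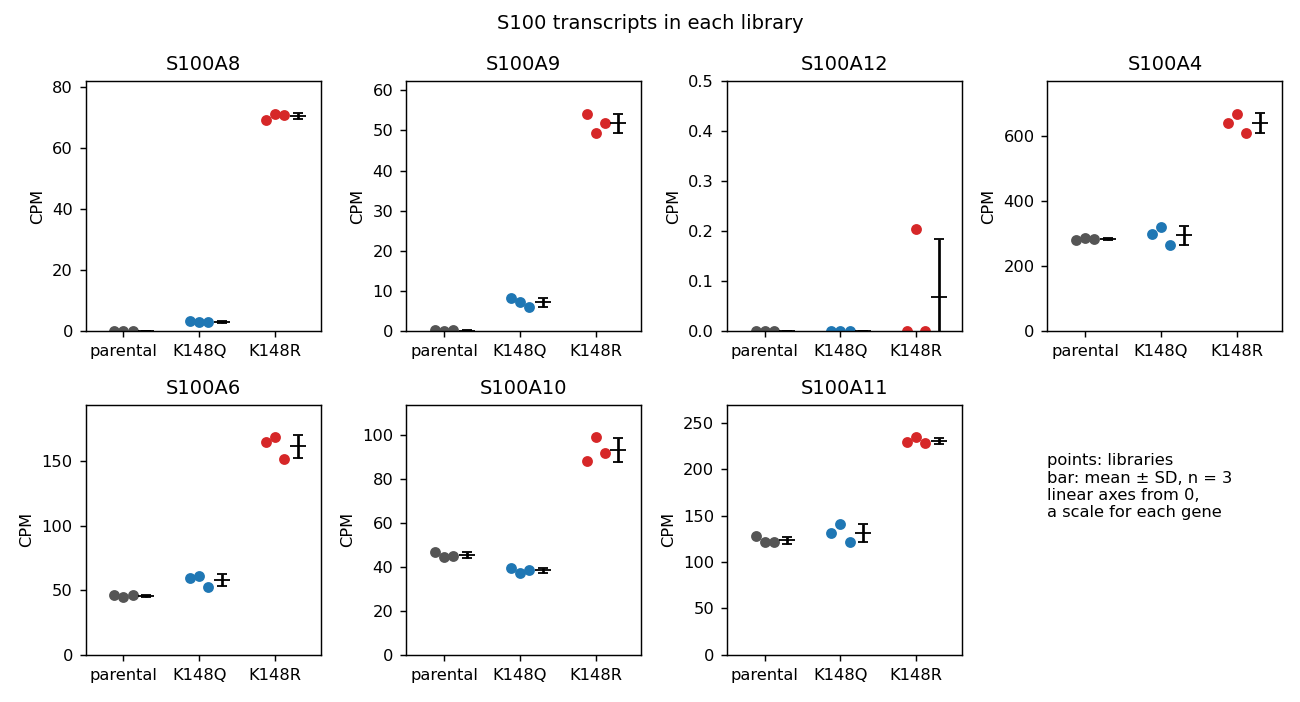
Level of each of the 7 S100 genes in CPM, in a panel with its own linear axis from 0 for each gene; points are libraries, grouped as parental, K148Q and K148R, and bars give the mean ± SD (n = 3). S100A8 and S100A9 lie at or near 0 in parental cells, in single digits in K148Q and between 49.4 and 71.4 CPM in K148R, whereas S100A4, S100A6, S100A10 and S100A11 start above 40 CPM in the parental libraries and S100A12 has a point above 0 only in K148R replicate 2.

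The balance within the calprotectin pair also lay apart in the variants. S100A8 made up 28.2% (exact Clopper-Pearson 95% interval 21.7 to 35.5), 28.2% (21.1 to 36.1) and 32.9% (25.3 to 41.1) of the summed S100A8 and S100A9 counts in the K148Q libraries. In K148R its share was 56.2% (54.1 to 58.2), 59.1% (56.8 to 61.4) and 57.7% (55.5 to 59.9). The intervals of the groups did not touch: S100A9 counts were the larger part of the pair in K148Q and S100A8 counts in K148R. The mean share was 29.8 ± 2.69% in K148Q and 57.7 ± 1.45% in K148R (SD, n = 3), a difference of 27.9 percentage points, with a two-sided exact permutation p of 0.1, the smallest that 3 libraries against 3 can give. Parental libraries held 3, 1 and 4 counts of the pair, too few to give a share.

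**Figure D2:**
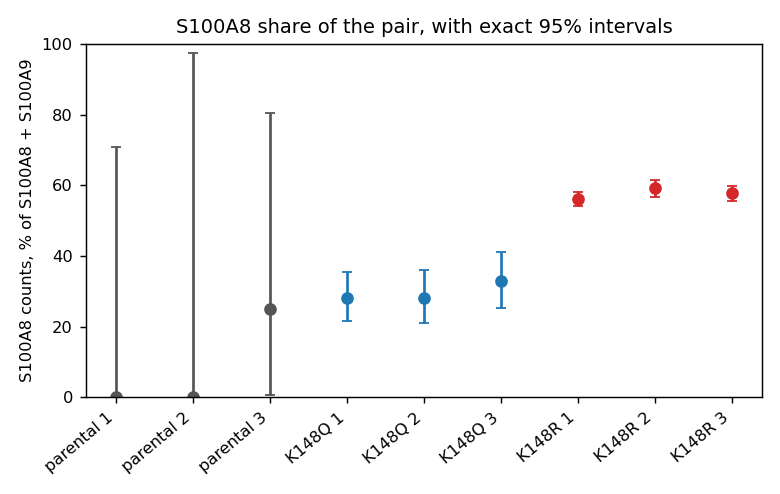
S100A8 counts as a percentage of S100A8 plus S100A9 counts in each library, with exact 95% intervals that cover counting error only. K148Q libraries sit at 28.2% to 32.9% and K148R libraries at 56.2% to 59.1%, while the parental intervals span most of the axis because they rest on 1 to 4 counts.

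S100A12, whose gene lies between those of the pair, did not join them at a level these libraries could measure. It had 0 counts in the 3 parental and 3 K148Q libraries, where 3 counts over the group would be 0.0636 and 0.0651 CPM. In K148R it had 0, 3 and 0 counts, all of them in replicate 2. It did not pass the filter on low counts and was not tested, and no fold is given for it. S100A9 (chromosome 1, 153357854 to 153361027, plus strand), S100A12 (153373706 to 153375649, minus strand) and S100A8 (153390032 to 153391188, minus strand) are neighbours on GRCh38, with 29004 bases between S100A9 and S100A8.

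The sequences before these transcription starts are shown because S100A8 and S100A9 differed together between the groups while S100A12 stayed near 0. They are from RefSeq on GRCh38.p14, where all 7 members were matched, and run 5′ to 3′ on the strand of the gene, with CG pairs and a TATAAA near the start in capitals. Shown are chr1:153391189-153391438 (minus) before the farthest upstream of the annotated S100A8 starts, chr1:153357604-153357853 (plus) before S100A9, and chr1:153375650-153375871 (minus) before S100A12. The stretch chr1:152037036-152037254 (minus) before S100A11, a member that all groups expressed, stands beside them for contrast. The S100A12 and S100A11 stretches, of 222 and 219 bases, end where an annotated exon of the gene begins. They thus stop short of the RefSeq starts at 153375621 and 152037004. The S100A11 stretch holds 13 of the 15 CG pairs given below for 250 bases, and the S100A12 stretch lacks the TATAAA given below.
S100A8: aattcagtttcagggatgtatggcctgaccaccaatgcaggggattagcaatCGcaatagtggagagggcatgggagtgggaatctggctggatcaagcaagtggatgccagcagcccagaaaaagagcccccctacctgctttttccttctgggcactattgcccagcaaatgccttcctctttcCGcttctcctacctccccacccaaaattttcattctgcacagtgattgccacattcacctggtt
S100A9: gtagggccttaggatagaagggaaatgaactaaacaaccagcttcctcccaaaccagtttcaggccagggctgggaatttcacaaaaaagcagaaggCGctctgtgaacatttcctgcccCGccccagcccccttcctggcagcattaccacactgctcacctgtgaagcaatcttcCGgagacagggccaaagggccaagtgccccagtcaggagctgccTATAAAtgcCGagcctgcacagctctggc
S100A12: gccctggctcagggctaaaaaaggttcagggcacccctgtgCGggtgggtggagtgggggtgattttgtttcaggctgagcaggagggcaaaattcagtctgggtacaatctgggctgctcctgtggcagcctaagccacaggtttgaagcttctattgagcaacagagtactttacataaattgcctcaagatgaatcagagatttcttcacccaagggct
S100A11: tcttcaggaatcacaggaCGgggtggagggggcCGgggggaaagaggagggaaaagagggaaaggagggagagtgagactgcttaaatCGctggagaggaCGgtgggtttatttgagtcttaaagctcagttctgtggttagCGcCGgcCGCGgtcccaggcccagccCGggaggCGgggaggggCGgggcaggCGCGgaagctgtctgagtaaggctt

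In the 250 bases before the start, the 3 calgranulin genes held few CG pairs: 2 for S100A8 before any of its annotated starts, 4 for S100A9 and 1 for S100A12, where the median of 34943 promoter windows was 11. S100A4 held 7, S100A11 held 15, and S100A6 and S100A10 held 24 each. The genes that were silent or nearly so in parental cells were thus the ones with the fewest CG pairs among the 7, a description of 7 sequences and no test. TATAAA stood within the last 50 bases before a start in S100A8, S100A9, S100A4 and S100A12, against 2.6% of all windows. The sites follow, from chr1:153391085-153391114 (minus), chr1:153357813-153357842 (plus), chr1:153545820-153545849 (minus) and chr1:153375622-153375641 (minus), with TATAAA in capitals.
S100A8: aagcctaaccgcTATAAAaaggagctgcct
S100A9: tcaggagctgccTATAAAtgccgagcctgc
S100A4: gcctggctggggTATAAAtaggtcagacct
S100A12: gcctgaactgatTATAAAac
The first base of TATAAA was 29 bases before the start in S100A9, 31 in S100A4 and 8 in S100A12. In S100A8 it was 29 bases before 1 of 3 annotated starts, at 153391073, which lies downstream of the farthest upstream start, and the windows before the other two starts held none in their last 50 bases. Both strands of the 300-base windows, 250 before and 50 after the start, were also searched for 5 motifs. GAGGAA, a core that PU.1 binds, was found as its other strand TTCCTC before S100A8 and S100A9. It stood 208 bases before the S100A9 start, and at 1 place before S100A8 that is 74 bases before the farthest upstream start and 189 before the annotated start nearer the coding part that follows the TATAAA, a match that 27.9% of all promoters hold. TTGCNNAA, a C/EBP core held by 10.5%, lay before S100A11 and S100A12. TGANTCA, the AP-1 motif held by 7.7%, lay before S100A12. CACGTG, the E-box that MYC binds with MAX and that 7.2% hold, and the interferon-stimulated response element, held by 3.6%, were in none of the 7 windows. A match is a stretch of letters, not a bound site, and no match says only that these letters are not in this window.

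The other 4 members were expressed in every library, and K148R stood apart while K148Q stayed near parental cells. S100A4, which binds the heavy chain of non-muscle myosin, was at 281.4, 286.8 and 281.8 CPM in the parental libraries, at 299.1, 319.2 and 264.0 in K148Q and at 640.4, 668.0 and 608.6 in K148R. The K148R libraries were all above the others, whereas the K148Q range enclosed the parental one. S100A4 rose 2.26-fold in K148R against parental cells (log2 1.17 ± 0.064, adjusted p = 3.4e-10) and was 2.17-fold higher than in K148Q cells (adjusted p = 7e-10). Against parental cells its log2 fold change in K148Q was 0.05 ± 0.064 (adjusted p = 0.5). That call turned on K148Q replicate 3, the library that stood apart: without it the value was 0.12 with an adjusted p of 0.0091.

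S100A6, which binds the ubiquitin ligase adaptor CACYBP, had the largest fitted rise of these 4 genes in K148R. It was at 46.3, 44.4 and 46.1 CPM in the parental libraries, 59.6, 61.0 and 52.3 in K148Q and 164.4, 168.2 and 151.2 in K148R. The 3 groups did not overlap. S100A6 rose 1.26-fold in K148Q (log2 0.34 ± 0.073, adjusted p = 0.0013) and 3.54-fold in K148R (log2 1.82 ± 0.072, adjusted p = 8.2e-12) against parental cells. Of its exon bases 2.4% are shared with an annotated antisense gene, and whether the counting used strand was not given in the sources used here.

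S100A10 moved in opposite directions in the variants. S100A10, which lacks calcium-driven activation and pairs with annexin A2 at the membrane, was at 46.9, 44.6 and 44.9 CPM in the parental libraries, 39.6, 37.4 and 38.6 in K148Q and 88.3, 98.9 and 91.8 in K148R. All K148Q libraries were below and all K148R libraries above the parental ones. On the log2 scale it fell by 0.24 ± 0.069 in K148Q (adjusted p = 0.0099) and rose by 1.03 ± 0.067 in K148R (adjusted p = 2.6e-09) against parental cells. The K148Q call held under all 17 alternatives, with adjusted p up to 0.048. Between the variants K148R was 2.41-fold higher (adjusted p = 3.3e-10).

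S100A11, which binds annexin A1, was at 127.5, 121.3 and 121.1 CPM in the parental libraries, 131.1, 140.8 and 121.8 in K148Q and 228.9, 234.2 and 227.6 in K148R. Parental and K148Q libraries overlapped, and all K148R libraries were higher. It rose 1.87-fold in K148R against parental cells (log2 0.90 ± 0.059, adjusted p = 3.1e-09), while the log2 fold change in K148Q was 0.09 ± 0.06 (adjusted p = 0.22). Without K148Q replicate 3 the latter was 0.14 with an adjusted p of 0.011, so this call, too, turned on that library. Reads of S100A11 could also be shared with 2 processed pseudogene copies, S100A11P1 and S100A11P2.

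**Figure D3:**
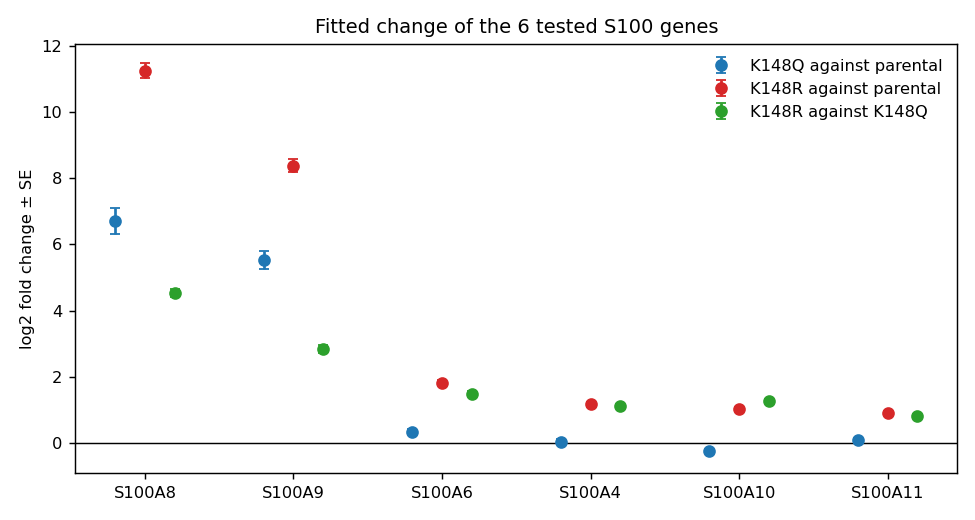
Fitted log2 fold change with its SE for the 6 tested S100 genes in the 3 comparisons of genotypes. S100A8 and S100A9 lie far above the rest in all 3 comparisons, the K148Q values of S100A4, S100A6, S100A10 and S100A11 against parental cells lie between -0.24 and 0.34, and the S100A8 values against parental cells rest on 1 parental count.

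These counts stand beside many other differences. Of all tested genes, 53.3% were called in K148Q against parental cells, 75.1% in K148R against parental cells and 71% between the variants. Of the 6 tested members, 3 were higher in K148Q than in parental cells (S100A6, S100A8 and S100A9), where 27% of all tested genes were, and 1 was lower, S100A10, where 26.3% were. Those at least 2-fold higher were S100A8 and S100A9, against 4.71% of genes. In K148R against parental cells all 6 were higher, against 37.8% of genes, and 0 were lower, against 37.3%, with 5 at least 2-fold higher, against 14.4%. In K148R against K148Q cells the 6 were again higher, against 36.6%, and 0 were lower, against 34.5%, with 5 at least 2-fold higher, against 13.8%. In both K148R comparisons the member under 2-fold was S100A11. S100A8 and S100A9 passed the filter on low counts only through the groups where they were high, and the members were chosen with earlier results known, so these counts are a description. In the 4 members that every library expressed, the K148R rise against parental cells ran from 1.87-fold to 3.54-fold. Summed over the 7 genes the level was 494.1 to 502.2 CPM in parental libraries, 485.8 to 568.6 in K148Q and 1202 to 1290 in K148R.

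Per length of transcript, S100A4 was the most abundant member in each group. Taking CPM per kilobase of the longest annotated coding transcript, the parental order was S100A4 at 472, S100A11 at 208, S100A6 at 67.7, S100A10 at 37.8, S100A9 at 0.25 and S100A8 at 0.038. In K148R the order was S100A4 at 1070, S100A11 at 388, S100A6 at 240, S100A8 at 135, S100A9 at 89.8 and S100A10 at 77.4, with no overlap between neighbours in that order over the 3 libraries. S100A8 and S100A9 thus stood above S100A10 in K148R cells, whereas in K148Q, at 5.8 and 12.5, they stood below its 32.1. The order of S100A8 and S100A9 in K148R depended on the length used: per kilobase of all annotated exon bases S100A8 was at 70.1 and S100A9 at 89.8. Levels per length were ranked among the 11413 tested genes with an annotated coding transcript, leaving out genes with too few counts to test. Of these genes 1.3% lay below S100A8 in parental cells, 38.9% in K148Q and 95.8% in K148R. For S100A9 these shares were 5.7%, 57.5% and 93.3%, and for S100A4 they were 99.0%, 99.2% and 99.5%.

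All 7 genes lie in the S100 cluster of chromosome 1, in which S100A10 (151982915 to 151994390) and S100A11 (152032506 to 152047907) are separated by 1310 kb from the stretch with S100A9, S100A12 and S100A8. S100A6 (153534599 to 153536244) and S100A4 (153543613 to 153550136) follow, 7.37 kb apart. The long gap holds genes of the skin barrier, such as filaggrin and the small proline-rich proteins. Of 48 genes other than S100 genes between S100A10 and S100A1, 0 had enough counts to be tested, 39 had 0 counts in all libraries, and the highest level in any library was 0.362 CPM. Of 17 S100 genes in the cluster 7 could be tested, the 6 members and S100A13, and all 7 were higher in K148R than in parental cells. Apart from S100A13 these are the members counted above, chosen with earlier results known. S100A8 and S100A9 passed the filter only through groups where they were high. Outside the cluster, within 1 Mb on either side, 24 of 42 tested genes were higher and 10 lower in K148R against parental cells, with a median log2 fold change of 0.28. The median over chromosome 1 without the members was 0.02, with 482 genes higher and 453 lower of 1216. The expressed S100 genes were thus interspersed with genes whose counts were too low to test.

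**Figure D4:**
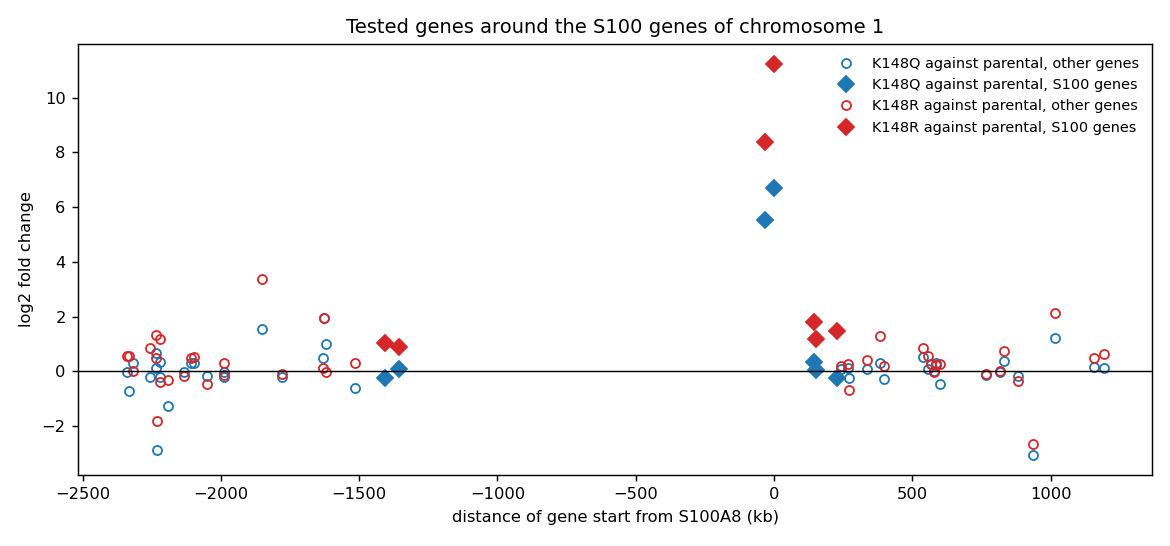
Fitted log2 fold change of K148Q (blue) and K148R (red) against parental cells for tested genes in the S100 cluster and within 1 Mb on either side of it, by distance of the gene start from S100A8 in kb; diamonds are S100 genes and open circles other genes. The 7 red diamonds, which are the tested members and S100A13, lie above 0, while the 42 other genes lie on both sides of it, 24 of them called higher and 10 lower in K148R.

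Of 14 further S100 genes only S100B and S100A13 could be tested. S100B, best known from glia and melanocytes, was at 0.741 ± 0.299 CPM in parental, 1.02 ± 0.317 in K148Q and 6.41 ± 0.699 CPM in K148R cells (log2 fold change of K148R against parental cells 3.13, adjusted p = 2.9e-08). S100A13, which takes part in the release of fibroblast growth factor 1, was at 2.32 ± 0.437, 1.94 ± 0.305 and 6.44 ± 0.484 CPM (1.48, adjusted p = 1.9e-06). Both were called higher in K148R than in K148Q cells, and neither was called in K148Q against parental cells. S100A7, S100A7A, S100A7L2, S100A14 and S100G, most of them genes of epithelia, had 0 counts in all libraries, and none of the other untested S100 genes had more than 29 counts in a group.

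The genes that S100 proteins bind inside the cell did not all move with them. Of 10 such genes, 6 were higher and 4 lower in K148R against parental cells, where 37.8% and 37.3% of all tested genes were. Their median log2 fold change was 0.95, where that of all genes was 0.00. In K148Q 5 of the 10 were higher and 4 lower, where 27% and 26.3% of all tested genes were, with a median of 0.15. ANXA1, the annexin that S100A11 binds, was at 1.98 ± 0.115 CPM in parental, 6.16 ± 0.876 in K148Q and 118 ± 1.22 CPM in K148R cells, a 59.4-fold rise in K148R (adjusted p = 6e-15). ANXA2, the annexin that S100A10 binds, went the other way: it was at 211 ± 5.9 CPM in parental, 111 ± 10.2 in K148Q and 149 ± 5.84 CPM in K148R cells, and fell by 0.93 on the log2 scale in K148Q (adjusted p = 4.3e-08) and by 0.50 in K148R (adjusted p = 7.2e-06). In K148R cells S100A10 RNA was thus higher and ANXA2 RNA lower than in parental cells.

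Other partners differed likewise in direction. AHNAK, a giant scaffold that S100A10 and annexin A2 hold at the membrane, was at 400 ± 17.6 CPM in parental, 338 ± 30.7 in K148Q and 1290 ± 26.0 CPM in K148R cells. In both variants its direction was that of S100A10, lower in K148Q (adjusted p = 0.0038) and higher in K148R (adjusted p = 3.8e-12). CACYBP, the partner of S100A6, was lower in K148R, at 159 ± 6.15 CPM against 245 ± 3.87 (adjusted p = 3.1e-07). Its K148Q value against parental cells was called only in some fits (log2 -0.14, adjusted p = 0.077, and -0.21 with adjusted p = 5.7e-05 without K148Q replicate 3). MYH9, the myosin chain that S100A4 binds, rose from 949 ± 8.32 to 1510 ± 78.0 CPM (adjusted p = 9.7e-08). The annexins ANXA5, ANXA6 and ANXA11 rose 6.34-fold, 4.16-fold and 2.34-fold in K148R. S100PBP, a nuclear protein that binds S100P, fell by 1.30 on the log2 scale in K148R.

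Receptors of S100 proteins outside the cell were partly present. Of 9 tested receptor and co-receptor genes, 6 were higher and 2 lower in each variant against parental cells, with median log2 fold changes of 0.50 in K148Q and 0.77 in K148R. Of all tested genes 27% were higher and 26.3% lower in K148Q, and 37.8% and 37.3% in K148R. The receptor genes counted were not all the same in the variants. ALCAM was higher in K148Q (log2 0.77, adjusted p = 7.1e-06) and lower in K148R (log2 -0.45, adjusted p = 0.0006), and MYD88 and LY96 were each called in only 1 variant. TLR4, the receptor that calprotectin engages, was at 9.39 ± 0.254 CPM in parental, 23.2 ± 2.42 in K148Q and 50.2 ± 7.02 CPM in K148R cells (log2 1.30 and 2.42 against parental cells, adjusted p = 5.5e-07 and 8.4e-11). Its partner LY96, without which TLR4 does not sense lipopolysaccharide, averaged 0.909 ± 0.626 CPM in parental, 0.0413 ± 0.0716 in K148Q and 0.84 ± 0.2 CPM in K148R cells. It was called lower in K148Q than in parental cells (adjusted p = 0.0012) and higher in K148R than in K148Q (adjusted p = 0.00075), both against 2 counts in K148Q, and was not called in K148R against parental cells (adjusted p = 0.94). CD14, the co-receptor, had 6, 0 and 17 counts in the parental, K148Q and K148R groups and was not tested. CD36, a scavenger receptor that takes up lipids carried by calprotectin, rose from 14.9 ± 0.577 CPM to 74.7 ± 19.2 in K148Q and 412 ± 39.0 in K148R. MYD88, the adaptor below TLR4, rose 3.76-fold in K148R (adjusted p = 9e-13) and had an adjusted p of 0.51 in K148Q. BSG and NPTN, related surface proteins that bind S100A9 and S100A8 in that order, rose 1.7-fold and 1.77-fold in K148R. AGER, which encodes the receptor RAGE, fell in both variants, from 4.72 ± 0.693 CPM to 2.59 ± 0.204 in K148Q (adjusted p = 0.00098) and 3.26 ± 0.432 in K148R (adjusted p = 0.012).

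**Figure D5:**
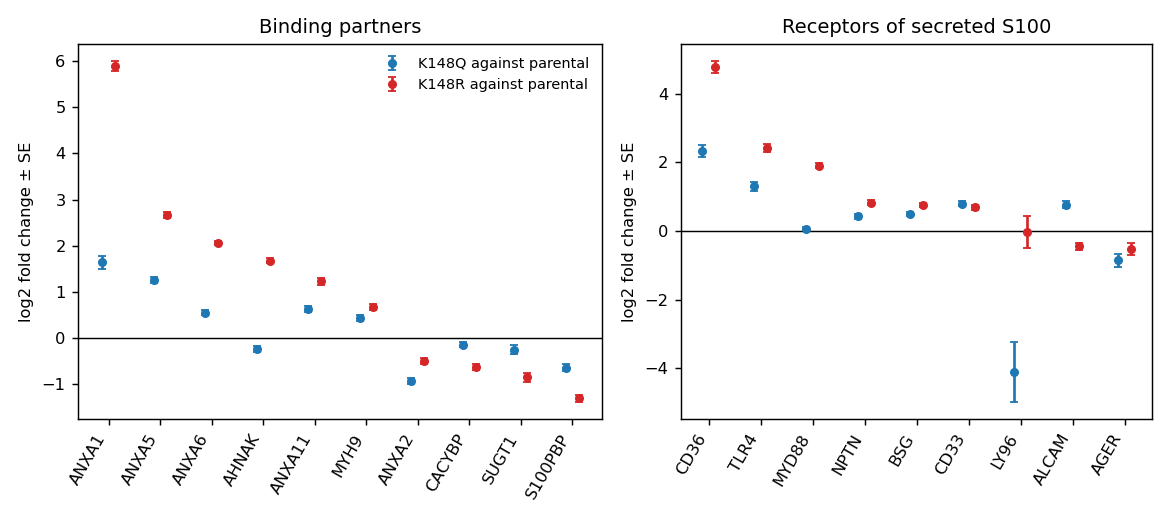
Fitted log2 fold change with its SE of K148Q (blue) and K148R (red) against parental cells for 10 genes whose proteins S100 proteins bind inside the cell and 9 receptor and co-receptor genes, in panels with separate axes. ANXA1 lies at 5.89 in K148R and ANXA2 below 0 in both variants, and CD36 lies at 4.79 in K148R; the K148Q value of LY96 rests on 2 counts.

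The NADPH oxidase of phagocytes, to which S100A8 and S100A9 deliver arachidonic acid, was higher in K148R cells throughout. Against parental cells 7 of 7 genes were higher, where 37.8% of all tested genes were, with a median log2 fold change of 1.30. In K148Q 5 of the 7 were higher and 1 lower, where 27% and 26.3% of all tested genes were, with a median of 0.44. CYBB, the catalytic subunit, went from 0.328 ± 0.169 CPM in parental to 15.8 ± 1.76 in K148R cells (adjusted p = 2.3e-11) and was at 0.430 ± 0.136 in K148Q (adjusted p = 0.55). The cytosolic subunits NCF1 and NCF4 and the GTPase RAC2 rose 3.25-fold, 2.46-fold and 1.86-fold in K148R. CYBB and S100A8 had unlike calls in K148Q cells, where S100A8 was called higher and CYBB was not; the difference between the genes was not tested.

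Other genes of mature monocytes and neutrophils were only partly expressed. Of 18 listed genes 9 could be tested, with a median log2 fold change of 1.81 in K148R against parental cells. All 9 were higher there, against 37.8% of all tested genes. That count is partly set by the filter on low counts: CLEC7A with 0, 0 and 56 counts in the parental, K148Q and K148R groups, FPR1 with 2, 3 and 144 and CAMP with 6, 3 and 171 passed it only through K148R, as did some genes of the other lists, CYBB among them. In K148Q 4 were higher and 1 lower, against 27% and 26.3% of all tested genes. The median of the list was 0.39, or 0 with genes near 0 counts held at their bounds. The lower gene was MMP9 (log2 -1.74, adjusted p = 0.02), on 18 parental and 5 K148Q counts. Between the variants 8 of the 9 were higher in K148R than in K148Q, against 36.6% of all tested genes, and 1 was lower, against 34.5%. That gene was MNDA, at 4.02 ± 0.397 CPM in parental, 14.8 ± 3.1 in K148Q and 7.36 ± 1.32 CPM in K148R cells. LYZ, which encodes lysozyme, reached 1650 ± 21.5 CPM in K148R cells from 161 ± 2.88, and CTSS, a lysosomal protease, 173 ± 2.72 from 69.7 ± 2.74. CD68, a lysosomal protein of macrophages, and CSF3R, the receptor of granulocyte colony-stimulating factor, rose 2.11-fold and 2.03-fold. CAMP, a peptide of neutrophil granules, was at 3.53 ± 0.897 CPM in K148R. Genes that accompany S100A8 and S100A9 in blood monocytes and mature neutrophils stayed at counts too low to test: FCN1 had 0, 0 and 8 counts in the parental, K148Q and K148R groups, VCAN 3, 0 and 3, LTF 1, 0 and 6, and MMP8 and PGLYRP1 0 throughout. VNN2, of the same list, ran the other way, with 37, 10 and 1 counts. These untested genes were picked for naming after their values were seen.

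Of 13 transcription factors of the myeloid lineage 11 were higher in K148R than in parental cells, against 37.8% of all tested genes, and 0 lower, against 37.3%. Their median log2 fold change was 0.81. In K148Q 7 were higher and 1 lower, against 27% and 26.3% of all tested genes. The median of the list was 0.68, or 0.47 with genes near 0 counts at their bounds. C/EBP and PU.1 family factors are known to act on the calprotectin genes. SPI1, which encodes PU.1, was at 156 ± 1.93 CPM in parental, 253 ± 30.0 in K148Q and 260 ± 18.5 CPM in K148R cells, higher in both variants (adjusted p = 3.9e-06 and 6.6e-07). Between the variants it was not called (log2 0.04 ± 0.077, adjusted p = 0.68). CEBPB was highest in K148Q, at 49.0 ± 2.78 CPM against 17.7 ± 0.437 in parental and 31.1 ± 1.81 in K148R cells. STAT3 followed the order of S100A8, at 48.7 ± 1.99, 77.9 ± 2.28 and 138 ± 1.91 CPM, and mean levels of CEBPA, KLF4 and CEBPD ran in that order too. CEBPA was at 274 ± 5.66, 380 ± 37.9 and 428 ± 15.2 CPM. It was called higher in K148R than in K148Q (adjusted p = 0.025), a call kept under 14 of 17 alternatives, with adjusted p up to 0.1. KLF4 and CEBPD rose 7.21-fold and 2.28-fold in K148R, and 2.12-fold and 1.88-fold in K148Q. GFI1, a repressor needed for neutrophils, was higher in K148Q at 279 ± 6.04 CPM and in K148R at 255 ± 5.54 than in parental cells at 132 ± 2.26. RUNX1, at 315 ± 5.97, 312 ± 38.5 and 315 ± 15.5 CPM, and CEBPE, at or below 2.03 CPM on average, were called in no comparison of all 9 libraries. Without K148Q replicate 3 RUNX1 was called lower in K148Q than in parental cells (log2 -0.12, adjusted p = 0.011) and higher in K148R than in K148Q (0.12, adjusted p = 0.0077). CEBPE was called higher in K148R than in K148Q without K148Q replicate 1 (log2 0.96, adjusted p = 0.017) or without K148R replicate 3 (0.76, adjusted p = 0.048).

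Markers of other cell types gave some values that moved with the genotype. S100A4, S100A6, S100A10 and S100A11 are abundant in fibroblasts as well. Of 6 fibroblast markers 3 passed 1 CPM in K148R cells, COL1A1 at 2.89 ± 0.784, COL3A1 at 1.87 ± 0.635 and COL1A2 at 1.48 ± 0.5, and the list summed to 0.417 to 3.62 CPM in parental, 0.0684 to 0.31 in K148Q and 5.17 to 8.8 in K148R libraries. Parental counts of these 3 genes lay almost only in replicate 1. They were 14, 1 and 0 for COL1A1, 17, 0 and 0 for COL3A1 and 13, 0 and 0 for COL1A2 in replicates 1 to 3. The epithelial list ran the other way, at 26.9 to 28.6 CPM in parental, 0.717 to 1.67 in K148Q and 1.61 to 3.05 CPM in K148R libraries, most of it KRT8 and KRT18, at 11.3 ± 0.862 and 16.3 ± 1.24 CPM in parental cells. The T and NK cell list summed to 50.1 to 55.9, 25.5 to 27.8 and 27.1 to 28.4 CPM, nearly all of it NKG7, and the B cell list to 3.28 to 5.0, 3.35 to 6.0 and 6.5 to 7.32 CPM. The erythroid and platelet list summed to 6.73 to 7.36, 0.31 to 0.616 and 17 to 20.7 CPM, nearly all of it ITGA2B, with PF4 at 0. The part of these markers in the S100 results was not tested.

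The genes whose profiles over the 9 libraries lay closest were sought for each member, by Euclidean distance between centred log2 CPM. For S100A8 the nearest of all tested genes was S100A9, at 2.22, followed by IGF1 at 2.64 and SIGLEC1 at 3.22, where the median gene was at 11. IGF1, a growth factor, was at 2.28 ± 0.241 CPM in parental, 27.3 ± 5.01 in K148Q and 277 ± 7.84 CPM in K148R cells. SIGLEC1, a sialic acid receptor of macrophages, was at 0.04 ± 0.0346, 0.556 ± 0.249 and 45.3 ± 1.68 CPM. For S100A9 the nearest were KLHL35, NPTXR and IGF1, at 1.62, 1.83 and 1.85, where the median was 9.49. KLHL35 and NPTXR were below 0.1 CPM on average in parental cells and were called higher in K148R than in K148Q. The nearest to S100A4 were ARF5, C17orf59 and PPARD, to S100A6 DGKQ, OSCAR and KDM6B, to S100A10 TTYH2, CTDSP2 and HK2, and to S100A11 SMAP2, SND1 and YIPF3. OSCAR, a receptor of myeloid cells, was at 20.9 ± 0.346 CPM in parental, 26.8 ± 3.01 in K148Q and 80.4 ± 2.78 CPM in K148R cells. HK2, which encodes hexokinase 2, was at 150 ± 1.05, 138 ± 4.39 and 318 ± 5.05 CPM. It was called higher in K148R, while its K148Q value against parental cells (log2 -0.12, adjusted p = 0.047) lost its call under 13 of 17 alternatives, with adjusted p up to 0.12.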

How the data were processed

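RNA was sequenced from 9 libraries. The authors deposited raw read counts per gene symbol. HISAT2 2.0.5, featureCounts 1.5.2, FastQC 0.11.7 and GRCh38 are named, without their roles, per the submitters' processing notes. Neither strand nor annotation nor options were given in the sources used here. Here, filterByExpr left 12845 genes, TMM scaled the counts, and edgeR 4.0.16 in R 4.3.3 fitted all 9 libraries in 1 model (robust quasi-likelihood F test, Benjamini-Hochberg adjustment over all genes tested, called at an adjusted p under 0.05). The SE is the log2 fold change over the root of F. Replicate numbers name no shared batch in the labels, so the main fit held no replicate term. Deviations from the group mean correlated by -0.024 to 0.269 between same-numbered libraries and by -0.239 to 0.173 between differently numbered ones. The highest value was that of K148Q replicate 3 with K148R replicate 3. Whether these libraries share a batch was not tested.

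Positions are from GENCODE 29. The 7 members and all gene lists were chosen with earlier results of these data known, so no list was tested as a set. Named by rule were MYC, the members, the 3 nearest profiles of each, and from each list up to 5 genes with the smallest p in K148R against parental cells and up to 2 of the highest CPM not called there. A few genes under that rule are not reported here. ANXA2, CACYBP, MYH9, S100PBP, AGER, ALCAM, SPI1, CEBPA, CEBPB, CLEC7A, FPR1, MMP9, MNDA and untested genes were named after their values were seen. Alternatives were DESeq2 1.42.0, limma-voom 3.58.1, other scalings and filters, fits of only the compared groups, a replicate term and leaving out each library.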

Additional observations from a re-analysis of the deposited data

How the results depend on the processing

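All 6 tested members kept the direction and call of each comparison under all 17 alternatives, except S100A4 and S100A11 in K148Q against parental cells: without K148Q replicate 3 both were called, and leaving out 1 library at a time moved the S100A4 log2 fold change from -0.009046 to 0.12. Members called ranged from 4 to 6 in K148Q against parental cells and stayed at 6 in both other comparisons. Genes called over all tested ranged from 5812 to 8350, from 9060 to 10317 and from 8610 to 9717. With a replicate block calls numbered 7262, 9821 and 9410, where the main fit without it gave 6848, 9649 and 9126. No call of a member changed with the block. Among other named genes, CACYBP was called in K148Q against parental cells with the block (log2 -0.14, adjusted p = 0.049) and without K148Q replicate 3 (-0.21, adjusted p = 5.7e-05). The fitted S100A8 value against parental cells moved most without parental replicate 3, from 11.24 to 13.12 in K148R and from 6.71 to 8.58 in K148Q. Genes that changed sign were not called under the reported settings. RUNX1 had log2 fold changes of 0.003792 with total-count scaling and 0.004201 with only the compared groups fitted in K148Q against parental cells, of -0.041, -0.020 without a filter and -0.00429 in K148R against parental cells, and of -0.045, -0.00906 and -0.017 in K148R against K148Q cells. With 1 library left out these ran from -0.12 to 0.038, from -0.037 to 0.025 and from -0.035 to 0.12. SPI1 in K148R against K148Q cells was at -0.02255 with total-count scaling and from -0.058 to 0.093 with 1 library left out, and LY96 in K148R against parental cells at 0.15 with limma-voom and from -0.44 to 0.57. RCN2 in K148R against parental cells ran from -0.13 to 0.026, and SMAP2 in K148Q against parental cells from -0.0054 to 0.038. Depth limits S100A12 in all groups and S100A8 and S100A9 in parental cells.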

Other observations

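Of 19 tested genes for calcium-binding proteins with EF hands outside the S100 family, 10 were higher and 5 lower in K148R against parental cells. Of all tested genes 37.8% and 37.3% were. The median log2 fold change of the 19 was 0.22, and 1 of them was at least 2-fold higher, against 14.4% of all tested genes. That gene was CAPN2, the large subunit of a calpain protease, at 99.4 ± 3.81 CPM in parental, 165 ± 1.23 in K148Q and 492 ± 8.87 CPM in K148R cells. CAPNS1 and CAPN1, further calpain subunits, rose 1.52-fold and 1.69-fold in K148R, and PDCD6 rose 1.43-fold. MCFD2 and RCN2 were not called there (log2 -0.11 and -0.06), but MCFD2 was with only the compared groups fitted (-0.12, adjusted p = 0.021) and without K148Q replicate 3 (-0.12, adjusted p = 0.018). In K148Q 9 of the 19 were higher and 4 lower, where 27% and 26.3% of all tested genes were, with a median of 0.12.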
